A study of Mus musculus with 6 samples.

Results

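The genes described here are those through which a cell makes, senses, takes up and exports cholesterol. The list held 29 genes, chosen by name, and 27 of them had a transcript cluster (a set of probes that together read 1 transcribed region) carrying that single gene symbol on a mouse gene array, of 19938 genes so represented. The other 2, Acat2 and Soat1, were not analysed here. Where a gene had several clusters, the one with the highest mean over all arrays stood for it. Testes were taken from mouse pups at postnatal day 15, and each of 6 arrays read the RNA of 1 sample, 3 from control and 3 from knockout mice. Beyond the targeted gene, the labels give no strain, no allele and no Cre driver, and they leave unsaid if each replicate is its own animal. A p-value here reflects the variation among these 6 samples alone, part or all of which may be technical.

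Cholesterol is built from acetyl-CoA along the mevalonate pathway, which ends in farnesyl pyrophosphate, and then through squalene and lanosterol to the finished sterol. The transcription factor SREBP2 switches these genes on together when sterols run low: SCAP escorts it from the endoplasmic reticulum to the Golgi for activation, and INSIG proteins hold SCAP back when sterols are plentiful. In the testis, Leydig cells consume cholesterol to make testosterone, and Sertoli cells take up and export lipid. Germ cells carry meiosis-activating intermediates of the pathway, made at and after the step of the enzyme CYP51.

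SREBP2 binds sterol elements beside sites for the general factors NF-Y and Sp1, so the promoters show what the pathway genes share. RefSeq promoters (build GRCm38.p6, 250 bases before the start of transcription and 50 from it on) were matched by symbol for 21 of the 27 genes. No promoter was matched for Fdps, Fdft1, Npc1, Sqle, Abcg1 and Scarb1, so these could not be searched or shown. The promoter of Hmgcs1 is shown because it alone among the 21 held the sterol element searched for (TCACNCCAC, either strand), and those of Mvd, Lss and Ebp because their array values did not overlap between the genotypes, as described further on. Each is printed from 5′ to 3′ in the direction of transcription, and capitals mark the sterol element and the NF-Y box (CCAAT, or ATTGG where it lies on the other strand). Hmgcs1 lies at chr13:119690101-119690400 on the plus strand, Mvd at chr8:122443373-122443672 on the minus strand, Lss at chr10:76531355-76531654 on the plus strand and Ebp at chrX:8193463-8193762 on the minus strand.
Hmgcs1: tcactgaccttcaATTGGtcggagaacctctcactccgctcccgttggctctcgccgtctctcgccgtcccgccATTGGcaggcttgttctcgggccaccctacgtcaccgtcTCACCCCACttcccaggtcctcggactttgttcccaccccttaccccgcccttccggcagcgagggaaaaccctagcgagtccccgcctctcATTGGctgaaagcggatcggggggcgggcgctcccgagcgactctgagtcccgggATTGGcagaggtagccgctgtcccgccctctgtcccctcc
Mvd: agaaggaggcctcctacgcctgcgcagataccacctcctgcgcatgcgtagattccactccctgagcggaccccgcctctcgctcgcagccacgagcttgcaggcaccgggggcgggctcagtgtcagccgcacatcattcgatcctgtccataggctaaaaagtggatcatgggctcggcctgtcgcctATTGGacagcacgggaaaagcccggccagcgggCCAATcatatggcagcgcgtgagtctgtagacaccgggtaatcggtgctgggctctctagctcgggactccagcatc
Lss: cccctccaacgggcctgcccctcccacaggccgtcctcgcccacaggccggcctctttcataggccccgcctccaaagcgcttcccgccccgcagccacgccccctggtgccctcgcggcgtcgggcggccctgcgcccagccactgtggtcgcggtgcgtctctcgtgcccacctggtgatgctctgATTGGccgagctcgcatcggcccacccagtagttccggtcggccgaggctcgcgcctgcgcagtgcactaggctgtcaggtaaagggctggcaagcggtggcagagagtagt
Ebp: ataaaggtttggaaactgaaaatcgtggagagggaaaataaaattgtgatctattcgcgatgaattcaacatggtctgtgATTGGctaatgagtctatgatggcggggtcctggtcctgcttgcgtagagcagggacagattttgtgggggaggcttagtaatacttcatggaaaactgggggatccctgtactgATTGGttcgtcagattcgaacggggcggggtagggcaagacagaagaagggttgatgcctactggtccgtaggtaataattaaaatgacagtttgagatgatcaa

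Counted by genes, the NF-Y box was the most widely shared of the 4 motifs among the synthesis genes, narrowly ahead of the Sp1 box. It was found in at least 1 promoter of 14 of 14 synthesis genes with a sequence (100%), and of 19 of the 21 cholesterol genes (90.5%). Of all 27025 genes with a promoter sequence, 41.1% held it, and over the tested genes whose mean array value was at or above the median 43.1%. The promoters of the synthesis genes held 32 such matches, with first bases from position -237 to 35 relative to the start of transcription and a median of -55. In the printed sequences Hmgcs1 held 4, Mvd 2, Ebp 2 and Lss 1. The Sp1 box (GGGCGG, either strand) was found in 20 of the 21 genes (95.2%), against 38.2% of all genes and 72.2% of the tested genes at or above the median value. Among the synthesis genes it was found in 13 of 14 (92.9%). Counted by promoters of the synthesis genes, the NF-Y box and the Sp1 box were each found in 14 of 17 (82.4%). The E-box (CACGTG), a site shared by many factors, was found in 6 of the 21 (28.6%), namely Abca1, Dhcr7, Hsd17b7, Insig1, Sc5d and Scap, against 8.09% and 12.5%. The sterol element of Hmgcs1, TCACCCCAC, spans positions -137 to -129, and the same letters with any base in the middle were found in 1.44% of all genes. No motif contains another, and a match is a description of the sequence, not a site of binding. The search took exact letters only, so a promoter without a match may still hold a sterol element in another form.

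**Figure D1:**
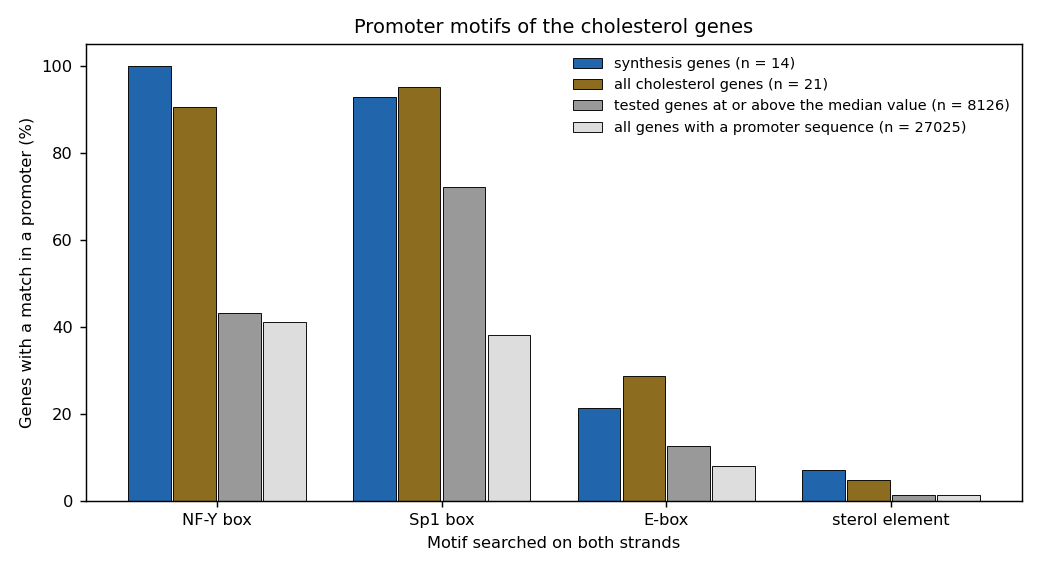
Share of genes (percent) with a match in at least 1 promoter, for each of 4 motifs, in the synthesis genes, all cholesterol genes with a promoter, the tested genes at or above the median array value and all genes with a promoter sequence. Bars for the NF-Y box stand at 100% and 90.5% in the cholesterol genes and at 43.1% and 41.1% in the other sets.

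The comparison of knockout with control asked whether the transcripts of these genes differ between the genotypes. None of the 27 passed an adjusted p of 0.05 in limma, where 3 of 21789 tested clusters (0.0138%) did, 1 lower and 2 higher. The smallest adjusted p among the 27, 0.412 in limma, was that of Fdps. At an unadjusted p under 0.05 there was 1 of 27 (3.70%), lower in the knockout, against 10.6% of all tested clusters (6.45% lower and 4.1% higher), and limma's adjusted p-values ran up to 0.987. Differences ran from -0.15 (Mvd, fold 0.899 of knockout over control) to 0.14 (Ebp, fold 1.10) on the log2 scale, and the median was -0.013, where the median of all tested clusters was 0.0033. Of the 27 genes 16 lay below the control mean and 11 above it, against 47% and 51.3% of all tested clusters. With the arrays centred on their medians the split was 12 below and 15 above and the median 0.0067. A difference of at least 0.1 in size was seen in 6 genes (22.2%) and in 24.1% of all tested clusters.

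The intervals around these differences were narrow. The 95% intervals from limma, not adjusted for their number, ran from -0.32 at the lowest bound to 0.27 at the highest, which are folds of 0.802 and 1.21. The interval of 1 gene, Fdps, left out 0. The median standard error was 0.048, and 0.056 over all tested clusters. In 23 of the 27 genes the difference between the genotypes was smaller than the range of the 3 control values. The groups of values did not overlap in 6 genes (22.2%, against 15.3% of all tested clusters). In 5 of them (Mvd, Fdps, Fdft1, Lss and Npc1) the knockout was lower, as in 8.6% of all tested clusters, and in 1 (Ebp) higher, as in 6.73%. Centring the arrays on their medians put Hsd17b7 (higher) in the place of Npc1, and repeating the quantile normalisation put Srebf2 (lower) and Hsd17b7 (higher) in the place of Mvd and Fdft1. Leaving out 1 array raises the share over all tested clusters as well: without control replicate 2 the count was 11 (40.7%, against 23.9% of all tested clusters), and without control replicate 3 it was 7 (25.9%, against 27%). In bulk tissue, fewer cells of a type and less RNA per cell cannot be told apart.

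**Figure D2:**
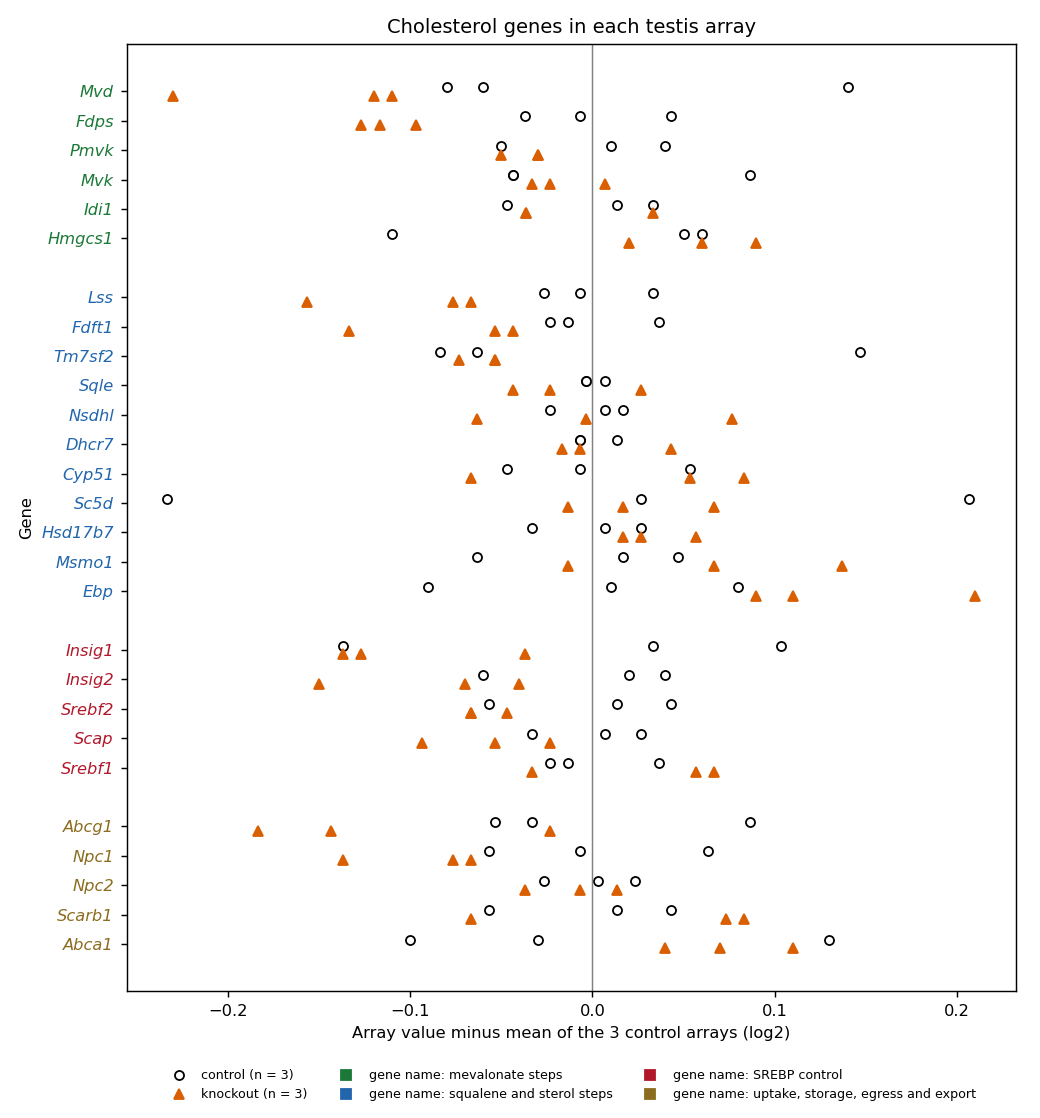
Value of each of the 27 genes on each array, as the array value minus the mean of the 3 control arrays (log2), for control (open circles) and knockout (triangles), with gene names coloured by role. The knockout values lie clear of the control values in Mvd, Fdps, Lss, Fdft1, Npc1 and Ebp, and the widest control spread is that of Sc5d.

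Among the mevalonate enzymes, the last of the series had the smallest p. Fdps encodes farnesyl pyrophosphate synthase, whose product feeds sterols as well as protein prenylation. It read 10.27, 10.19 and 10.22 on the control arrays and 10.11, 10.13 and 10.10 on the knockout arrays. All knockout values were below all control values, and they differed less among themselves than the control values did. The difference was -0.11 (SE 0.041, 95% interval -0.21 to -0.016, adjusted p = 0.412 in limma), from 10.23 ± 0.040 to 10.11 ± 0.015 (SD, n = 3 arrays).

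Mvd, which decarboxylates mevalonate pyrophosphate, read 9.45, 9.25 and 9.23 in control and 9.19, 9.20 and 9.08 in knockout. Its groups did not overlap, but control replicate 1 lay well above the other 2 and the nearest values of the groups were 0.03 apart. The difference was -0.15 (SE 0.070, 95% interval -0.32 to 0.011, adjusted p = 0.496 in limma). Without control replicate 1 it was -0.083.

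The other mevalonate enzymes had overlapping groups. Hmgcs1, which condenses acetoacetyl-CoA with acetyl-CoA and carries the sterol element printed above, read 11.08, 10.92 and 11.09 in control and 11.12, 11.09 and 11.05 in knockout (difference 0.057, 95% interval -0.077 to 0.19). Control replicate 2 was its lowest array, and without it the Hmgcs1 difference was 0.0017. Mvk, mevalonate kinase, differed by -0.017 and the next kinase of the pathway, Pmvk, by -0.037. Idi1, which isomerises isopentenyl pyrophosphate, differed by -0.013, and the other cluster that carries its symbol by -0.010. Of these 4, Idi1 and Mvk changed sign under median centring of the arrays. Over the 6 measured mevalonate genes 5 lay below the control mean and 1 above, with a median of -0.027.

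The squalene and sterol steps held genes on both sides. Ebp, the X-linked sterol isomerase, had the largest difference upwards of all 27 genes. It read 10.14, 10.04 and 10.21 in control and 10.22, 10.34 and 10.24 in knockout. All knockout values were above all control values, though the nearest of them were 0.01 apart. The difference was 0.14 (SE 0.059, 95% interval -0.0016 to 0.27, adjusted p = 0.475 in limma), from 10.13 ± 0.085 to 10.27 ± 0.064 (SD, n = 3 arrays).

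Lss, which closes the sterol rings to form lanosterol, read 9.71, 9.77 and 9.73 in control and 9.66, 9.67 and 9.58 in knockout, a difference of -0.10 (SE 0.044, 95% interval -0.20 to 0.0045, adjusted p = 0.484 in limma). Fdft1, squalene synthase and the first step given over to sterols, read 11.67, 11.68 and 11.73 in control and 11.56, 11.65 and 11.64 in knockout. Both genes lay lower on every knockout array than on any control array. For Fdft1 the difference was -0.077 (SE 0.045, adjusted p = 0.589 in limma), and its other cluster gave the same difference with groups that did not overlap either.

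The remaining sterol enzymes had groups that overlapped. Sqle, the rate-limiting squalene epoxidase, read 9.96, 9.97 and 9.96 in control and 9.94, 9.99 and 9.92 in knockout, and its difference of -0.013 changed sign with arrays centred on their medians. Cyp51, the lanosterol demethylase, read 8.97, 8.93 and 9.03 in control and 8.91, 9.03 and 9.06 in knockout (difference 0.023, 95% interval -0.10 to 0.15). Tm7sf2, a sterol reductase that acts on the product of CYP51, differed by -0.060. In none of these 3 genes were the knockout values on 1 side of the control values.

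Further along the pathway, Msmo1, the sterol C4-methyl oxidase, differed by 0.063, and its partners in the removal of those methyl groups, the X-linked Nsdhl and Hsd17b7, by 0.0033 and 0.033. Dhcr7, which carries out the last reduction to cholesterol, read 10.45, 10.43 and 10.43 in control and 10.42, 10.48 and 10.43 in knockout. The difference of Dhcr7 was 0.0067 (95% interval -0.086 to 0.10). Sc5d, a sterol desaturase, had the largest standard error of the 27 genes (0.10), and its control values ran from 9.60 to 10.04 while its knockout values ran from 9.82 to 9.90. Its difference was 0.023 (95% interval -0.22 to 0.27). Of the 11 genes of the squalene and sterol steps, 4 lay below the control mean and 7 above it (median 0.0067).

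**Figure D3:**
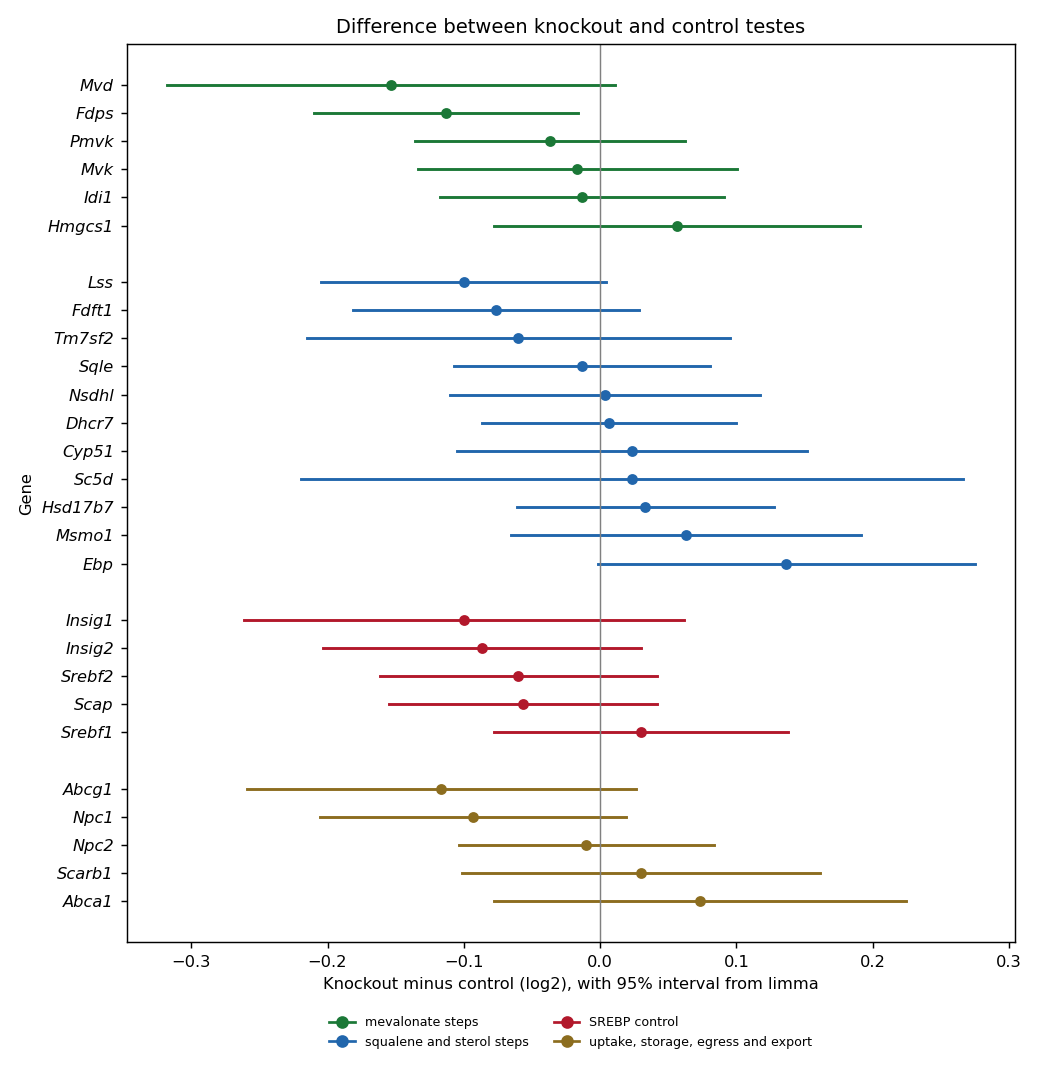
Difference of each of the 27 genes, knockout minus control on the log2 scale (points), with the 95% interval from limma (lines, n = 3 arrays per group), coloured by role. The intervals lie between -0.32 and 0.27, and only that of Fdps leaves out 0.

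Of the 5 genes that control SREBP, 4 lay below the control mean and 1 above it, by small amounts. Insig2, which holds the SCAP complex in the endoplasmic reticulum, read 10.90, 10.82 and 10.92 in control and 10.73, 10.81 and 10.84 in knockout (difference -0.087, SE 0.050, adjusted p = 0.582 in limma). Insig1, its relative, read 11.07, 11.31 and 11.24 in control and 11.07, 11.17 and 11.08 in knockout (difference -0.10, SE 0.069, adjusted p = 0.662 in limma). Control replicate 1 was level with the lowest knockout value of Insig1, and without it the difference was -0.17 (adjusted p = 0.372 in limma).

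Srebf2, which encodes SREBP2, read 10.81, 10.74 and 10.84 in control and 10.73, 10.75 and 10.73 in knockout, a difference of -0.060 (SE 0.043, adjusted p = 0.676 in limma). Control replicate 2 lay between the knockout values, so the groups overlapped. Scap, the escort protein, differed by -0.057 (SE 0.042), and Srebf1, whose product drives fatty acid synthesis, by 0.030 (SE 0.046). The 5 genes had a median of -0.060. Their mean over the 5 stood at -0.062, -0.030 and -0.072 relative to the control mean on knockout arrays 1, 2 and 3, and at -0.022, -0.0020 and 0.024 on control arrays 1, 2 and 3. Those means were 0.008 apart at the nearest, and they overlapped when the arrays were median-centred or quantile-normalised again, as the single values of each of the 5 genes did as deposited.

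Uptake, egress and export were measured in 5 genes. Npc1, the lysosomal membrane protein that releases cholesterol taken up by endocytosis, read 10.44, 10.39 and 10.51 in control and 10.38, 10.37 and 10.31 in knockout. Its groups did not overlap, with the nearest values 0.01 apart, and the difference was -0.093 (SE 0.048, adjusted p = 0.540 in limma). Npc2, the soluble protein that hands cholesterol to NPC1, differed by -0.010 (SE 0.040), which turned to 0.010 with arrays centred on their medians.

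Abcg1, which exports cholesterol to high-density lipoprotein and is induced by oxysterols, read 9.50, 9.38 and 9.36 in control and 9.27, 9.39 and 9.23 in knockout (difference -0.12, SE 0.061, adjusted p = 0.546 in limma). Knockout replicate 2 lay among the control values. Abca1, the exporter to lipid-poor apolipoprotein and a target of the same oxysterol receptors, went the other way, with 11.41, 11.25 and 11.18 in control and 11.39, 11.35 and 11.32 in knockout (difference 0.073, SE 0.064). That of Abca1 was 0.14 without control replicate 1 and 0.023 without control replicate 3. Whether the differences of the 2 exporters differ from each other was not tested. Scarb1, the receptor through which steroidogenic and Sertoli cells take up cholesterol from high-density lipoprotein, read 11.65, 11.68 and 11.58 in control and 11.71, 11.72 and 11.57 in knockout (difference 0.030, 95% interval -0.10 to 0.16).

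Other genes of sterol handling were taken from a list of 30, of which 24 were measured. None passed an adjusted p of 0.05 in limma, 0 lay lower and 3 higher at an unadjusted p under 0.05 (4.1% of all tested clusters were higher), and the median was 0.012. Acat3, a close relative of the acetoacetyl-CoA thiolase gene Acat2, read 9.02, 9.08 and 9.29 in control and 9.48, 9.49 and 9.35 in knockout. Its groups did not overlap, and the difference of 0.31 (SE 0.079, adjusted p = 0.320 in limma) was larger in size than that of any of the 27 genes. Because probes may read both relatives, it is uncertain which of them this cluster measures. Cyp27a1, which makes an oxysterol and is a step of bile acid synthesis, was 0.20 higher (SE 0.072) and Cyp7b1, an oxysterol hydroxylase, 0.15 higher (SE 0.063), with adjusted p-values of 0.404 and 0.456 in limma.

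The fatty acid genes that SREBP proteins also drive had a median of 0.047 over 12 genes, and none passed an adjusted p of 0.05 in limma. At an unadjusted p under 0.05 there were 2 lower and 2 higher, where 6.45% of all tested clusters were lower and 4.1% higher. Me1, the malic enzyme that supplies NADPH for lipid synthesis, read 12.18, 12.17 and 12.17 in control and 12.28, 12.32 and 12.27 in knockout (difference 0.12, SE 0.039, adjusted p = 0.388 in limma). The desaturase gene Fads1 was 0.14 higher (SE 0.051) and the desaturase gene Scd1 was lower (-0.24, SE 0.087) in the knockout. In each of these 2 genes the groups did not overlap, with the nearest values 0.01 apart. Groups did not overlap in 5 of the 12 genes (41.7%), 2 lower and 3 higher, against 15.3% of all tested clusters. Fasn, the fatty acid synthase, had equal means of 11.91 in both groups.

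Markers of germ cells and of most somatic cells in the lists had larger median differences than the 27 cholesterol genes (-0.013), adipocyte markers being the exception, and their part in the values above was not tested. The 12 markers of pachytene spermatocytes had a median of -0.49, and 12 of 12 lay below the control mean, Ccna1 (-0.27) and Tbpl1 (-0.19) having the smallest p. The mean of that list was -0.36, 0.23 and 0.13 relative to the control mean on control arrays 1, 2 and 3, and -0.57, -0.51 and -0.30 on knockout arrays 1, 2 and 3, so control replicate 1 stood among the knockout arrays. Of 12 spermatogonial markers 10 lay below (median -0.11), though Gfra1 was 0.39 higher while Sall4 was lower (-0.30). The mean of the spermatogonial list did not overlap between the groups. It stood at 0.037, -0.040 and 0.0033 on control arrays 1, 2 and 3, and at -0.073, -0.094 and -0.10 on knockout arrays 1, 2 and 3.

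Markers of the somatic cells that handle cholesterol lay mostly above the control mean. Of 7 measured Leydig cell markers 6 did (median 0.22), with Cyp11a1 0.37 higher and Hsd17b3 lower (-0.43). The list mean overlapped between the groups, at 0.15, -0.04 and -0.11 on control arrays 1, 2 and 3 and 0.081, 0.17 and 0.26 on knockout arrays 1, 2 and 3. Of 11 Sertoli cell markers 10 lay above (median 0.073), Kitl (0.28) and Wt1 (0.070) having the smallest p, and of 10 macrophage markers 10 did (median 0.14), Cx3cr1 (0.16) and C1qc (0.16) having the smallest p. Neither of these 2 list means overlapped between the groups. On arrays 1, 2 and 3 the Sertoli mean was 0.017, -0.034 and 0.016 in control and 0.073, 0.10 and 0.044 in knockout. The macrophage mean was -0.041, -0.040 and 0.080 in control and 0.11, 0.16 and 0.13 in knockout. The 6 measured adipocyte markers had a median of -0.013, with Plin1 at 0.12 and Fabp4 at -0.073, and overlapping list means. None of the markers of these lists passed an adjusted p of 0.05 in limma. Among the measured markers were Inha (12.90 ± 0.050 in control, SD, n = 3 arrays) of Sertoli cells and Piwil1 (10.81 ± 0.44) of germ cells. The Leydig cell markers Insl3 and Lhcgr and the Sertoli cell marker Rhox5 were not measured. RMA gives every cluster a value on each array, so a value does not show detection, and detection calls were not used here.

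**Figure D4:**
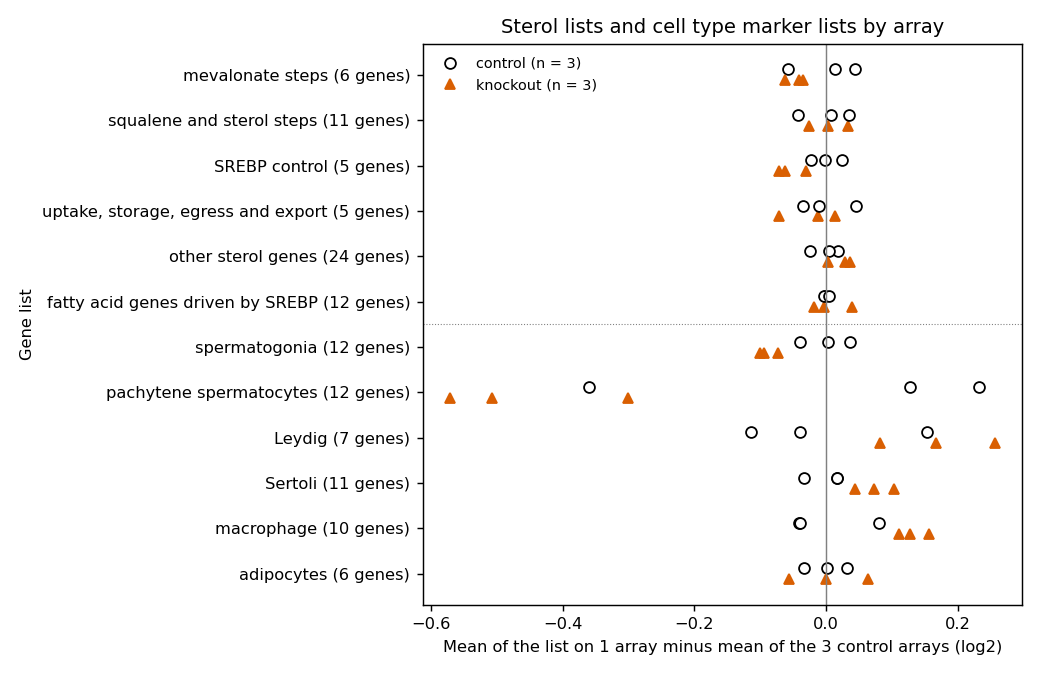
Mean of each gene list on each array minus the mean of the 3 control arrays (log2), for control (circles) and knockout (triangles), with the cholesterol and lipid lists above the dotted line and the cell type markers below it. The pachytene list runs from -0.57 to 0.23, while every array of the 4 cholesterol groups lies between -0.072 and 0.045.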

How the data were processed

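Values were 1 log2 value per transcript cluster and array, from Affymetrix Mouse Gene 1.0 ST arrays. Per the submitters' processing notes, the authors made the deposited log2 values with RMA in Affymetrix Expression Console; versions, probe annotation and build are not stated there. RMA subtracts background, gives the arrays 1 common distribution by quantile normalisation and summarises probes, which hides a global shift and shrinks differences of dim clusters. Array medians ran from 8.075 to 8.1, and the lowest correlation was 0.997 within and 0.996 across groups. The number of arrays limits the precision.

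Arrays were grouped by their labels, 3 control and 3 knockout. Of 35556 clusters, 21789 had 1 symbol in the platform annotation and were tested; 1621 with several and 12146 without one were left out. Gene identifiers linked 21698 of them to the gene table of GRCm38.p6, from which current symbols were taken. The genotypes were compared with limma 3.58.1 in R 4.3.3 (lmFit, eBayes), two-sided, with Benjamini-Hochberg adjustment over the 21789 clusters; the procedure was tested on simulated data. Differences are knockout minus control. Marker and pathway lists are described by counts and medians, without a test.

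The members, lists and rules were chosen with earlier results of these data known. Every cholesterol gene was named, with every array value for the 10 with the smallest p and for Hmgcs1, Sqle, Cyp51, Dhcr7, Abca1 and Scarb1, chosen after their values were seen; 3 genes were named for each pathway list and 2 for each marker list, by smallest p, and Fasn, Inha and Piwil1 after their values were seen. The targeted gene, which the labels name, is not reported here.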

Additional observations from a re-analysis of the deposited data

How the results depend on the processing

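In no alternative did any of the 27 genes pass an adjusted p of 0.05 in limma. At an unadjusted p under 0.05 the main fit held 1 of them, against 10.6% of all tested clusters. Over the alternatives that count ran from 0 (without knockout replicate 1 or 3) to 4 (intensity trend and robust prior, 3 lower and 1 higher). The share of all tested clusters at that level is not given for the alternatives, so these counts have no background to be read against. The smallest adjusted p was 0.291 in limma, for Fdps with dim clusters left out. Signs were not reversed in 361 of 378 pairs of gene and alternative. Among these was Cyp51 without control replicate 2, where the group means were equal. There were 17 reversals, in 9 genes, and the cause was not tested. With arrays centred on their medians the median became 0.0067, Idi1 0.0067, Mvk 0.0033, Npc2 0.010 and Sqle 0.0067; with quantile normalisation repeated over the tested clusters Idi1 was 0.0039 and Npc2 0.0047. Without control replicate 1 Idi1 was 0.0033; without control replicate 2 Npc2 was 0.0017, Nsdhl -0.0083 and Sc5d -0.093; without control replicate 3 Mvk was 0.027 and Tm7sf2 0.013. Without knockout replicate 1 Npc2 was 0.0033; without knockout replicate 2 Dhcr7 was -0.012 and Nsdhl -0.033; without knockout replicate 3 Cyp51 was -0.0067 and Sqle 0.0017. Leaving out 1 array moved the difference by over 1.5 times in 23 of the 27 genes, the other 4 being Fdps, Lss, Ebp and Scap; among those that kept their sign, Hmgcs1 ran from 0.0017 to 0.087, Abca1 from 0.023 to 0.14, Scarb1 from 0.0017 to 0.078, Insig1 from -0.17 to -0.048 and Mvd from -0.19 to -0.083. Over all arrays left out in turn, Cyp51 ran from -0.0067 to 0.068, Dhcr7 from -0.012 to 0.018, Idi1 from -0.037 to 0.0033, Mvk from -0.038 to 0.027, Npc2 from -0.023 to 0.0033, Nsdhl from -0.033 to 0.037, Sc5d from -0.093 to 0.13, Sqle from -0.033 to 0.0017 and Tm7sf2 from -0.10 to 0.013.

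The count of all clusters past the threshold was 3, 7 with an intensity trend and robust prior, 0 with all rows of the table, 2299 at an unadjusted p under 0.05, and from 0 to 52 when 1 array was left out, 52 being without control replicate 1. With the replicate number as a block it was 0 of all clusters and 0 of the 27 genes. Deviations of same-numbered arrays correlated at 0.17, -0.054 and 0.17, and 4 of 6 arrays correlated best with their own number. Whether the numbers pair the arrays was not tested. Genes whose groups did not overlap numbered 6 and from 7 to 11 when 1 array was left out, an alternative added after seeing the data, while the share over all clusters rose from 15.3% to between 22.6% and 27%. Without control replicate 2 it was 11 (40.7%, against 23.9% of all clusters), and without control replicate 3 it was 7 (25.9%, below the 27% of all clusters).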

Other observations

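Control replicate 2 held the lowest of the 3 control values in 9 of the 17 measured synthesis genes, control replicate 1 in 4 and control replicate 3 in 1, with 3 ties. The mean of the 17 genes was 9.78 on control replicate 2, against 9.85 on each of the other 2 control arrays and 9.80, 9.83 and 9.81 on the knockout arrays. This was noticed in the data and not tested.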
